A study of Homo sapiens with 2 samples.

Results

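The 82 genes described here are the NF-kB and innate immune signalling genes, without cytokines, that changed when the human hepatocellular carcinoma line SNU-449 was cultured with ezetimibe. Ezetimibe lowers blood cholesterol by blocking NPC1L1, the transporter that takes up sterols in the gut and liver. Total RNA was sequenced from 1 ezetimibe library, made from cells treated for 24 h, and from 1 control library of the same line; both were grown in the same medium with fetal bovine serum. The dose and the vehicle were not analysed here. The authors deposited a table of KEGG pathways that names the genes called changed between these libraries, each with a direction and with no level, fold change or p-value per gene. Members were taken from the genes named under 5 pathways (the signaling pathways of NF-kappa B, TNF, IL-17, NOD-like receptors and Toll-like receptors). Genes that are also under the cytokine, cell cycle, autophagy, mitophagy, endoplasmic reticulum or lysosome rows were removed, together with 10 named PI3K, MAP kinase and AP-1 genes. This left 82 of the 127 genes in the union of the 5 rows, out of 2238 changed genes in the whole table.

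Every member was therefore chosen because the authors called it changed, and what follows describes directions and has no test. There was 1 library per condition, so replicate spread cannot be judged for any gene, and the read depth behind the calls is unknown. "Up" is taken to mean higher with the drug, because the comparison puts ezetimibe before control; the table has no value that could test this reading. In RNA from a whole culture, a change in the mix of cells and a change in the RNA of each cell cannot be told apart. Without levels in the table, the labelled cell type could not be checked against its markers by abundance. Of its hepatocyte markers, 4 of 8 were named, all as down (FGA, FGB, FGG and CPS1), and of macrophage markers 1 of 4 was named, CD68, as up. None of 4 lymphocyte or 3 endothelial markers was named, and all 3 fibroblast markers (COL1A1, COL1A2 and ACTA2) were listed as down. The part of other cells in the results below was not tested.

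NF-kB is a family of dimeric transcription factors held in the cytoplasm by IkB proteins. Receptors for tumour necrosis factor, interleukin 17 and microbial products recruit adaptors and ubiquitin ligases that activate the IkB kinases, IkB is then degraded, and the dimer enters the nucleus. Several of its best known targets are its own subunits and inhibitors, which makes the pathway a feedback loop. A second arm, through cytosolic sensors of viral RNA and kinases related to the IkB kinases, activates interferon regulatory factors and interferon-induced genes. Liver cells use these pathways in the acute phase response and in defence against hepatitis viruses.

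Of the 82 members, 31 were listed as up with ezetimibe and 51 as down, so that 37.8% were up (95% Clopper-Pearson interval 27.3 to 49.2, exact, for counting among these genes only). Among the 2156 other changed genes, 697 were up and 1459 down, a share of 32.3%, which lies inside that interval. The background is that 25.2% of the 8877 pathway genes of the table were called changed, 8.20% as up and 17.0% as down; since the members were chosen by these calls, nothing is read from their number. A gene called not listed here may have missed the authors' criteria, may not have been expressed or may lie outside the pathways. The direction differed between role lists, which are small, and this was not tested. NF-kB subunits, IkB inhibitors and AP-1 or C/EBP factors were listed mostly as up. All members among the cytosolic nucleic acid sensors and the caspases were listed as down. With changed genes outside the members, 2 of the 9 in the sensor list and 2 of the 7 in the caspase list were up. The inflammasome members, 2 of 8 up, lay near the share of the other changed genes.

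**Figure D1:**
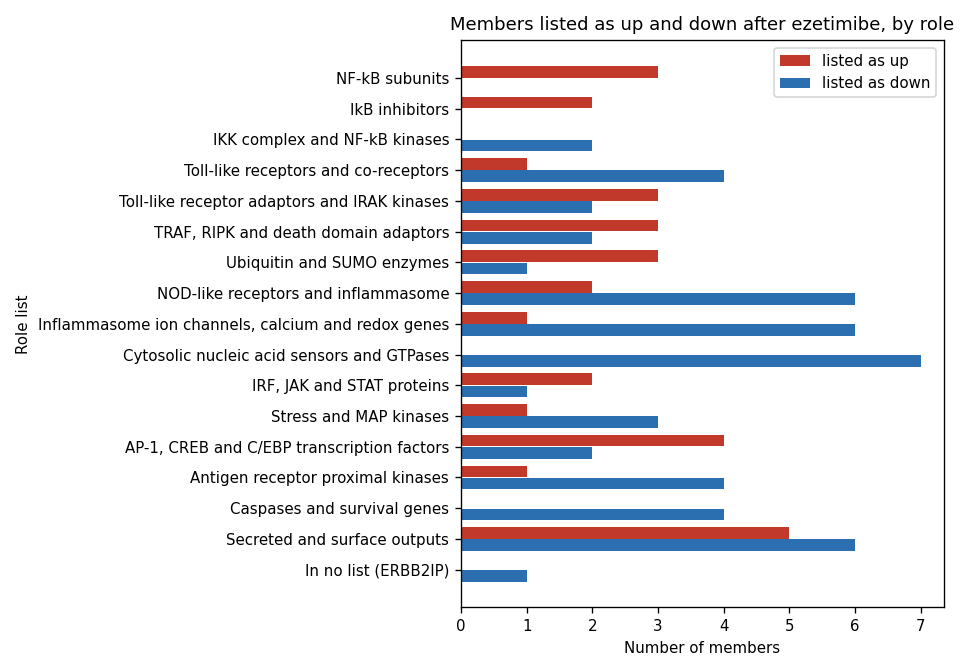
Number of members (horizontal axis) listed as up (red) and as down (blue) after ezetimibe in each of 16 role lists, with the gene that is in no list at the bottom. The NF-kB subunits and IkB inhibitors have red bars alone (3 and 2 genes), and the nucleic acid sensors and the caspases blue bars alone (7 and 4 genes).

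The transcription factor core of the pathway was mostly listed as up. All 3 members among the NF-kB subunits were up: NFKB1 and NFKB2, the precursors of the small DNA-binding subunits, and RELB, the partner of NFKB2 in the non-canonical pathway. Outside the members, RELA, the main activating subunit, was also up and had been removed because it is under the mitophagy row. REL, the lymphoid subunit, was listed as down under pathways other than these 5. Thus all 5 subunits were called changed, 4 as up and 1 as down. Both members among the IkB inhibitors, NFKBIA and NFKBIB, were up, as was NFKBIE, which is named under other pathways; NFKBIZ, BCL3 and NFKBID were not listed.

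NFKB1 and NFKBIA were the only members under all 5 rows. NFKB1 was under 64 of the 327 pathways of the table and NFKBIA under 41, against a median of 7 pathways for members listed as up and 6 for members listed as down. A gene's number of pathways reflects its annotation, not how far its RNA changed. TNFAIP3, the ubiquitin-editing enzyme A20 that shuts NF-kB signalling off, was up under 4 rows.

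The upstream kinases did not follow the subunits. Of 13 genes in the list of the IkB kinase complex and NF-kB kinases, CHUK, IKBKB and IKBKG, the canonical complex itself, were not listed, nor were MAP3K7 and its partners TAB1, TAB2 and TAB3. Both members of this list were down: MAP3K14, the NF-kB-inducing kinase of the non-canonical pathway, and IKBKE, a kinase that acts on interferon regulatory factors. Their relative TBK1, removed as a mitophagy gene, was also listed as down.

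The promoters of NFKB1, NFKBIA and TNFAIP3 are shown because the 3 genes are known NF-kB targets listed as up that hold a match to the NF-kB consensus. The promoters of NFKB2, NFKBIB, ICAM1 and TRAF1, also listed as up, were searched and hold none. Each sequence is the 250 bases before the first start in the RefSeq table (build GRCh38.p14), written 5′ to 3′ on the strand of the gene in lower case, with matches to the 10-base NF-kB consensus on either strand in capitals. The NFKB1 stretch is chr4:102501109-102501358 on the plus strand, that of NFKBIA chr14:35404750-35404999 on the minus strand and that of TNFAIP3 chr6:137867009-137867258 on the plus strand.
NFKB1: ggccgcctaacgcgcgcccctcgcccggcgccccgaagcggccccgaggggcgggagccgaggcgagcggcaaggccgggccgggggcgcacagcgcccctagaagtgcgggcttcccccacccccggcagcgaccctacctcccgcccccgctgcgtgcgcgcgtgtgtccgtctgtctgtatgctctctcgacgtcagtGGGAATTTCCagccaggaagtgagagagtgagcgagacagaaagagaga
NFKBIA: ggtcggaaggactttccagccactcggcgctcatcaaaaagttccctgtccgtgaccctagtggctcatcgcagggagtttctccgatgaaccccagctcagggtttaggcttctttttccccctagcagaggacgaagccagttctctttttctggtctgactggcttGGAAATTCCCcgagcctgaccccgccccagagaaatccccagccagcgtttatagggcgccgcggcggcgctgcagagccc
TNFAIP3: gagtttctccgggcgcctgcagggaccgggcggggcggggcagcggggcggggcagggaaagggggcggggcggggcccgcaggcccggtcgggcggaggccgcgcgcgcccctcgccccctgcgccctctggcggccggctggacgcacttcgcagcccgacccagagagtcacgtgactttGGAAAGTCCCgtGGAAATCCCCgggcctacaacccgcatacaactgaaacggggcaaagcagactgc
NFKB1 has 1 match, which begins 49 bases before the start, and NFKBIA has 1, at 81 bases. TNFAIP3 has 2, the first at 67 bases, with a gap of 2 bases between them. Read on the strand that fits the consensus, NFKB1 and NFKBIA hold the same 10 bases, GGGAATTTCC. OAS3, a member listed as down, holds these bases too.

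**Figure D2:**
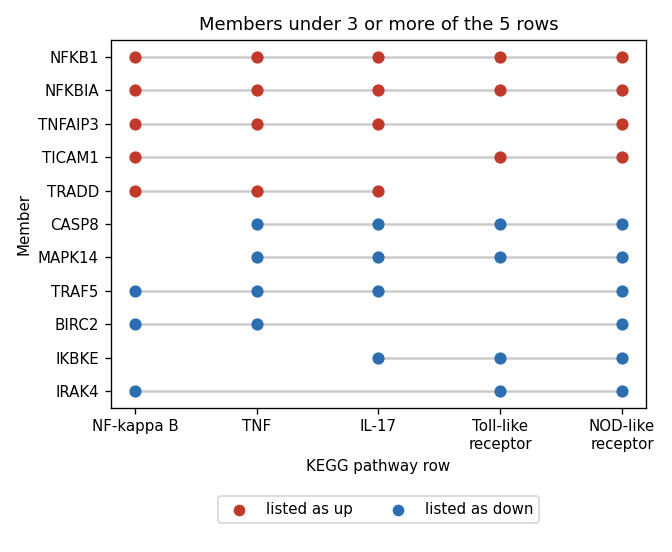
The 11 members under 3 or more of the 5 KEGG rows (vertical axis), with a point in each row that names them (horizontal axis), red where listed as up and blue where listed as down; grey lines join the points of a gene. NFKB1 and NFKBIA span all 5 rows, and 5 of the 11 are red.

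By row, the share of members listed as up ran from 32.4% to 60.0%. IL-17 signaling had 12 members up and 8 down (60.0% up, 95% interval 36.1 to 80.9), NF-kappa B signaling 11 and 12 (47.8%, 26.8 to 69.4) and Toll-like receptor signaling 8 and 11 (42.1%, 20.3 to 66.5). TNF signaling had 11 up and 16 down (40.7%, 22.4 to 61.2). The NOD-like receptor row had 12 up and 25 down (32.4%, 18.0 to 49.8). All 5 intervals overlap, and the rows share genes. Of the 57 members under 1 row alone, 18 were up, and 24 of the 57 were NOD-like receptor genes. Of the 25 members under 2 or more rows, 13 were up and 12 down (52.0%, 31.3 to 72.2). In the authors' deposited table, TNF signaling had a rich factor, the share of changed genes in the pathway over the share of background genes in it, of 1.50 (p = 0.00659, q = 0.0414) and IL-17 signaling of 1.47 (p = 0.0167, q = 0.0829). In the authors' deposited table the other 3 rows had rich factors of 1.15, 1.08 and 0.974, with p between 0.359 and 1.

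Receptors at the cell surface and in endosomes were mostly listed as down. Of 13 genes in the list, 5 were members and 4 of them were down. These were TLR1 and TLR6, the partners of TLR2 in lipopeptide sensing, TLR3, the endosomal sensor of double-stranded RNA, and CD14, the co-receptor for lipopolysaccharide. TLR9, the endosomal sensor of unmethylated DNA, was up. Its span overlaps another protein-coding gene, AC097637.1, by 5083 bases on the same strand, which leaves its call uncertain. TLR2, TLR4 and LY96 were not listed. TLR1 and TLR6 overlap by 33103 bases on the same strand of chromosome 4 in GENCODE release 29, so their calls may share reads.

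The adaptors below these receptors split within families. TICAM1 (TRIF), which carries signals from TLR3 and TLR4, was up, while TICAM2 (TRAM), which bridges TICAM1 to TLR4, was down. The kinase IRAK1 was up, and IRAK4, which phosphorylates it, was down. TOLLIP, an inhibitor of IRAK1, was up. IRAK2, a relative of IRAK1 named under other pathways, was up. MYD88 and TIRAP, the adaptors used by most of these receptors, were not listed. The span of TICAM2 overlaps a readthrough gene with its neighbour TMED7, which leaves its call uncertain.

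Adaptors of the tumour necrosis factor receptor family showed the same kind of split. TRADD, which docks on the receptor, TRAF1, a known NF-kB target, and RIPK2, the kinase of NOD1 and NOD2, were up. TRAF5, which feeds the NF-kB and JNK pathways, and BAG4, the silencer of death domains, were down. The receptor itself, TNFRSF1A, had been removed as a cytokine receptor gene and was listed as down. TRAF6, the ubiquitin ligase shared by the Toll-like and IL-17 receptors, had been removed as an autophagy gene and was up. TRAF2, TRAF3, RIPK1 and FADD were not listed.

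Of 4 members among the ubiquitin enzymes, 3 were up. They were TNFAIP3 and 2 subunits of the ligase that builds linear ubiquitin chains on the IkB kinase regulator, RBCK1 and SHARPIN; RNF31, its catalytic subunit, was not listed. BIRC2 (cIAP1), the ligase that ubiquitinates RIPK1 and keeps MAP3K14 low, was down, and its close relative BIRC3 was not listed.

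NOD-like receptor and inflammasome genes were mostly down, 6 of 8 members. NOD2, the sensor of bacterial muramyl dipeptide, and NLRP1, which nucleates an inflammasome, were up. NAIP, the receptor of bacterial flagellin, CARD8, a relative of NLRP1, NEK7, the partner of NLRP3, and CASP1, the protease that matures interleukin 1 beta, were down. So were the anthrax toxin receptors ANTXR1 and ANTXR2, which this KEGG pathway includes. NLRP3, PYCARD and GSDMD, the sensor, adaptor and pore of the best known inflammasome, were not listed. NAIP has near copies in the genome, so its reads may be split.

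Ion channels, calcium and redox genes of the same pathway had 1 of 7 members up. That gene was PANX1, a channel that releases ATP. Down were the phospholipases PLCB3 and PLCB4, the calcium release channel ITPR2, the mitochondrial channel VDAC3, the mitochondrial fission GTPase DNM1L and CYBB, the catalytic subunit of the phagocyte NADPH oxidase. With removed genes, 2 of the 9 changed genes of the list were up.

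All 7 members among the cytosolic nucleic acid sensors and GTPases were listed as down (share up 0%, 95% interval 0 to 41.0). DDX58 is RIG-I, the sensor of viral RNA. OAS1 and OAS3 make oligoadenylates when they bind double-stranded RNA. GBP1, GBP3 and GBP4 are interferon-induced GTPases that coat intracellular bacteria. The list held 2 more changed genes, ATG16L1 and GABARAP, which take part in autophagosome formation; both were up and had been removed as autophagy genes, so that 2 of its 9 changed genes were up. IFIH1, MAVS, CGAS and TMEM173 (STING) were not listed. GBP3, GBP1 and GBP4 follow one another on chromosome 1 with gaps of 29425 and 115788 bases, and OAS1 and OAS3 lie 5130 bases apart on chromosome 12. Both are families of similar genes, so single calls are uncertain where reads are shared. Without the GBP and OAS genes, 31 of 77 members were up (40.3%).

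The interferon regulatory factors among the members were listed as up. IRF7, which drives type I interferon genes, and IRF5, which acts below the Toll-like receptors, were up. IRF1, IRF3, IRF9 and STAT2 were not listed. SPP1 (osteopontin), placed in the same list because KEGG draws it below the Toll-like receptors, was down.

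Among stress and MAP kinases outside the removed genes, MAPK7 (ERK5) was up. MAPK14 (p38 alpha), its activating kinase MAP2K6 and RPS6KA5 (MSK1), a kinase that p38 activates, were down. MAPK14 was under 4 of the 5 rows and 49 pathways in all. Over all roles, 37.8% of the members were up, against 39 of the 98 other changed genes of the KEGG MAPK row (39.8%, 30.04 to 50.2). The 66 changed genes of the cytokine row had 33 up and 33 down (95% interval of the share up 37.4 to 62.6). These differences were not tested, since all of these genes were chosen by the same calls.

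Transcription factors that act beside NF-kB were up in 4 of 6 members. FOSB and FOSL1, subunits of AP-1, CEBPB, which cooperates with NF-kB at acute phase genes, and CREB3, a factor released from the endoplasmic reticulum membrane, were up. CREB5, a relative of CREB, and SRSF1, a splicing factor that the IL-17 pathway includes for its part in RNA stability, were down. FOS and JUN had been removed as named genes and were up.

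Antigen receptor and DNA damage inputs to NF-kB were down in 4 of 5 members. PLCG2, a phospholipase of B cells, was up. CARD10 and MALT1, parts of the complex that links receptors to the IkB kinases, and PARP1 and PIDD1, which carry the DNA damage signal to NF-kB, were down. With removed genes, 2 of the 7 changed genes of the list were up. LCK, ZAP70, LYN, SYK and BTK were not listed.

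All 4 members among the caspases and survival genes were down. Among them, CASP8 is the initiator of death receptor apoptosis and MLKL is the pore-forming effector of necroptosis. CASP8 was under 4 of the 5 rows. Outside the members, the list held 3 more changed genes. BCL2, which blocks apoptosis and was removed as an autophagy gene, was down, while the stress-induced genes GADD45A and GADD45G, named under pathways other than these 5, were up. CFLAR, BCL2L1, BCL2A1 and CASP10 were not listed.

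The output genes of the pathways were divided, with 5 of 11 up. The collagenase MMP1, the stromelysin MMP3, the gelatinase MMP9, the leukocyte adhesion molecule ICAM1 and the siderophore-binding protein LCN2 were up. The membrane-bound metalloproteinase MMP14, the signalling inhibitor SOCS3, the mucins MUC5AC and MUC5B, the vasoconstrictor peptide EDN1 and the urokinase PLAU were down. MMP1 and MMP3 are neighbours on chromosome 11 with a gap of 37641 bases, and MUC5AC and MUC5B lie 21928 bases apart on the same chromosome, next to TOLLIP, which was up. PTGS2, VCAM1 and SELE, known NF-kB targets, were not listed. ERBB2IP, a partner of the receptor ERBB2 that binds NOD2, is the 1 member in none of the lists and was down.

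The direction of the members went with the base composition of their transcripts. In the longest transcript of each gene, the median GC content was 57.7% for members listed as up (range 42.6 to 66.9, 31 genes) and 42.4% for members listed as down (range 35.7 to 66.0, 51 genes). Among all changed genes, those listed as up had a median of 55.2% and those listed as down 43.6%. Members listed as up also had shorter transcripts, with a median of 2769 bases against 4319 for members listed as down. Their spans in the genome had a median of 9481 bases, against 33451 for members listed as down. All changed genes showed the same order. Their median transcript length was 2859.5 bases in the up list and 4401 in the down list, and their median span 17891.5 and 52749 bases. The cause of this trend was not tested.

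**Figure D3:**
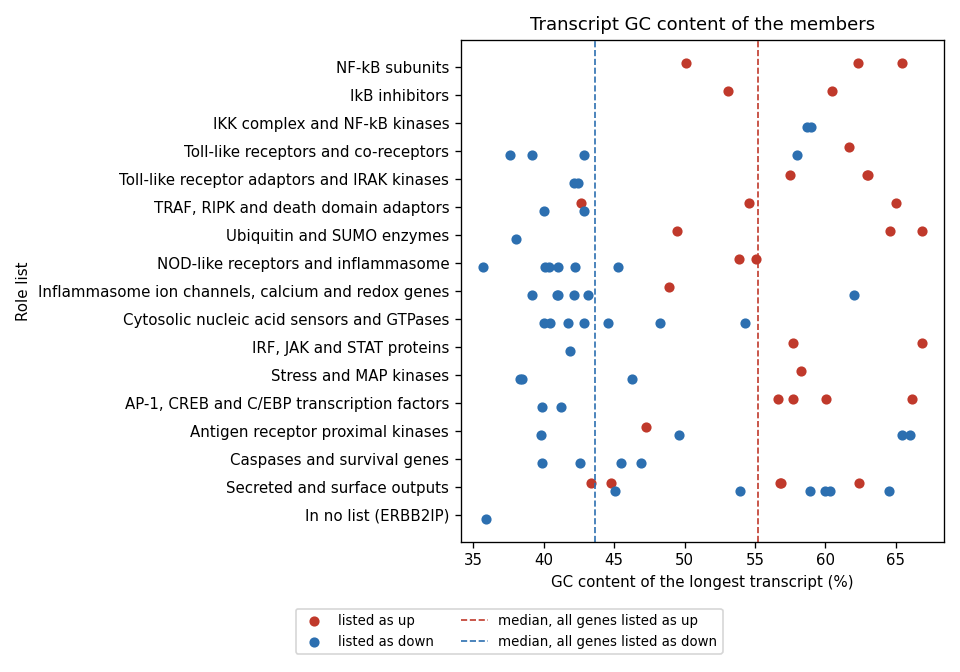
GC content of the longest GENCODE transcript (horizontal axis, %) of each member by role list, red where listed as up and blue where listed as down; dashed lines are the medians of all changed genes in each direction. The NF-kB subunits lie between 50.1% and 65.4%, and the nucleic acid sensors between 40.02% and 54.3%.

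The splits within families followed the same order in several cases, chosen here after their values were seen. TICAM1 had a GC content of 63.0% and TICAM2 of 42.4%. IRAK1 had 63.0% and IRAK4 42.1%. CREB3 had 56.6% and CREB5 39.9%, and TLR9 had 61.7%, against 37.6% to 42.8% for TLR1, TLR3 and TLR6. Among the NF-kB subunits REL, the 1 listed as down, had 38.7%. Other members went against the order. MMP1 at 43.4% and MMP3 at 44.8% were up while MMP14 at 58.9% was down, and PLCB3 at 62.0% was down together with PLCB4 at 39.2%.

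To set the members beside genes of like composition, all changed genes were divided into 5 equal classes of GC content. In the lowest class, up to 40.2%, 0 of 14 members were up, against 5.07% of 434 other genes. In the next, up to 44.4%, 2 of 19 members were up (10.5%), MMP1 and RIPK2, against 12.6% of 428. In the middle class, up to 50.6%, 5 of 13 members were up (38.5%), against 34.1% of 434. In the next class, up to 57.7%, 10 of 12 members were up (83.3%, 95% interval 51.6 to 97.9), against 50.3% of 435 (45.5 to 55.1). The 2 members listed as down there were OAS3 and PLAU. In the highest class 14 of 24 members were up (58.3%), against 59.9% of 424.

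Of the 82 members 31 were up, against the 28.0 that would have been if each had followed the share of the other changed genes in its own class. With classes of gene span in place of GC content that number was 30.4. By role, the NF-kB subunits and IkB inhibitors held 3 and 2 up, against 1.54 and 1.10 at these shares. The nucleic acid sensors held 0 up, against 1.61, the caspases 0, against 0.859, and the AP-1, CREB and C/EBP factors 4, against 2.38. The secreted and surface outputs held 5, against 5.31. Several roles listed mostly as down were close to these shares. The NOD-like receptor and inflammasome genes held 2 up, against 1.83, the Toll-like receptors 1, against 1.43, and the ion channel list 1, against 1.50. The antigen receptor list, also mostly down, held 1, against 1.93. The ubiquitin enzymes held 3, against 1.59, and the TRAF, RIPK and death domain adaptors 3, against 1.41. The Toll-like receptor adaptors and IRAK kinases held 3, against 1.95. The list of interferon regulatory factors held 2, against 1.23, and the stress and MAP kinases 1, against 1.04. The IkB kinase list held 0, against 1.20: MAP3K14 and IKBKE are GC-rich genes listed as down, at 59.0% and 58.7%. None of these gaps was tested.

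**Figure D4:**
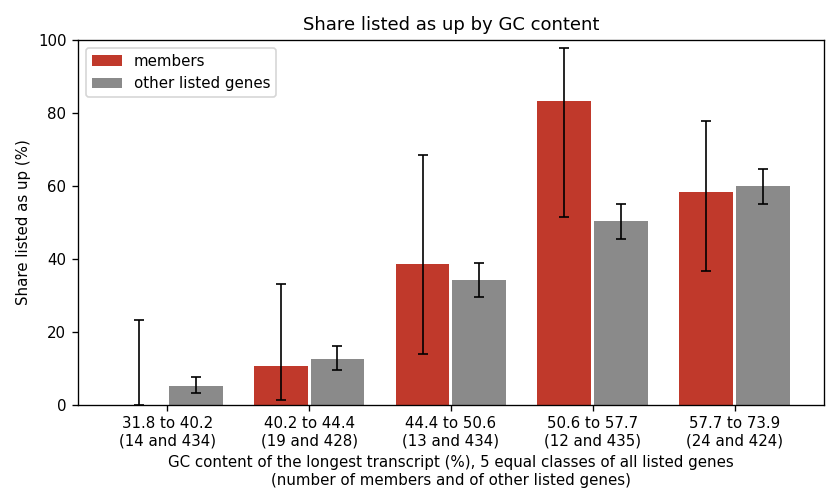
Share of genes listed as up (vertical axis, %) in 5 equal classes of transcript GC content (horizontal axis), for the members (red) and all other changed genes (grey); bars are shares and error bars are exact 95% intervals for counting. The other genes climb through all 5 classes. The members climb to the class from 50.6% to 57.7% (83.3% against 50.3%) and are lower in the highest class (58.3% against 59.9%).

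Some members went against the composition trend. In the highest class the 10 listed as down were CARD10, CD14, IKBKE, MAP3K14, MMP14, MUC5AC, MUC5B, PIDD1, PLCB3 and SOCS3. In the lowest and the next class together, RIPK2 at 42.6% and MMP1 at 43.4% were the members listed as up.

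Promoter sequences from RefSeq were matched for 58 of the 82 members, 21 listed as up and 37 as down. The NF-kB consensus, searched on both strands from 250 bases before to 50 after the first start, was found in 8 of 21 promoters of members listed as up (38.1%, 95% interval 18.1 to 61.6). It was found in 6 of 37 promoters of members listed as down (16.2%, 6.19 to 32.0). It was held by 12.3% of all 15843 protein-coding promoters in the table, and of those of all changed genes 14.1% of 581 listed as up and 13.5% of 1239 listed as down. Over both directions, 14 of 58 members held it (24.1%, 13.9 to 37.2). On the strand of the gene alone it was in 4 of 21 (19.0%) for members listed as up and 4 of 37 (10.8%) for members listed as down, against 9.11% of protein-coding promoters. Many members are known NF-kB targets and KEGG places some of them under these pathways for that reason, so the match is a description and not a site.

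Beside NFKB1, NFKBIA and TNFAIP3, the members listed as up with a match were TICAM1, IRAK1, LCN2, PANX1 and CREB3. The stretches around the first match are shown to let these be compared, with matches in capitals, on the strand of the gene and before its start. The stretch of TICAM1 is chr19:4831803-4831852 (minus strand), of IRAK1 chrX:154019987-154020036 (minus), of LCN2 chr9:128149258-128149307 (plus), of PANX1 chr11:94128721-94128770 (plus) and of CREB3 chr9:35732632-35732665 (plus).
TICAM1: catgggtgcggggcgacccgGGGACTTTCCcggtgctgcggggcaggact
IRAK1: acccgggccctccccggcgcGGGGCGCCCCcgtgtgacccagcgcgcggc
LCN2: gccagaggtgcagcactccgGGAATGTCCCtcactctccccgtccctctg
PANX1: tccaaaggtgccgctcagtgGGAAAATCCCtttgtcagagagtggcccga
CREB3: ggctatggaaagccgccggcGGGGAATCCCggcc
TICAM1 and TNFAIP3 hold the same 10 bases, GGGACTTTCC, read on the strand that fits the consensus. The match in IRAK1 is made of G and C alone.

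The 6 members listed as down with a match were DDX58, GBP4, OAS3, MAPK14, PARP1 and PLCB3. The stretch of DDX58 is chr9:32526243-32526292 (minus strand), of GBP4 chr1:89198958-89199007 (minus), of OAS3 chr12:112938324-112938373 (plus), of MAPK14 chr6:36027715-36027764 (plus), of PARP1 chr1:226408158-226408207 (minus) and of PLCB3 chr11:64251448-64251497 (plus).
DDX58: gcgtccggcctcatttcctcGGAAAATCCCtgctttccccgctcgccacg
GBP4: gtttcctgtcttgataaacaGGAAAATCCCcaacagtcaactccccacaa
OAS3: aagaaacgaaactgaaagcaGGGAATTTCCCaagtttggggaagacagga
MAPK14: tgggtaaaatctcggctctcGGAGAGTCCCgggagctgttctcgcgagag
PARP1: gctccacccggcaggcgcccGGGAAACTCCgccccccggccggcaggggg
PLCB3: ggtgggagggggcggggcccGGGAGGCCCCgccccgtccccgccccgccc
DDX58 and GBP4 share the 10 bases GGGATTTTCC with PANX1, which was listed as up. OAS3 has 2 matches that overlap. MAPK14 has 3, of which the first is shown. The matches of PARP1 and PLCB3 overlap a GC box, the binding element of Sp1 (GGGCGG). None of the matches in the other 12 promoters does.

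A second motif was found in more members listed as down than as up, with intervals that overlap. The difference was not tested, and here too a match is a description and not a site. The core of the interferon-stimulated response element, GAAA, 2 bases of any kind and GAAA again, on either strand, was found in 1 of 21 promoters of members listed as up (4.76%, 0.120 to 23.8), that of RBCK1. It was found in 7 of 37 promoters of members listed as down (18.9%, 7.96 to 35.2). Of all protein-coding promoters 3.17% held it, and 2.58% and 2.74% of those of all changed genes listed as up and as down. The 7 were CASP8, CYBB, GBP1, GBP3, GBP4, OAS3 and TLR3. They come from 4 of the role lists and include 4 of the nucleic acid sensors and GTPases. GBP1, GBP3 and GBP4 are copies of one family, so their matches are not separate. Of the interferon-induced sensors, DDX58 and OAS1 had promoters in the table without these letters. The DDX58 promoter holds GAAA, 1 base and GAAA again, a spacing that the search did not cover.

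The match of each of these genes is shown with 10 bases on either side, in capitals and on the strand of the gene; these sequences were chosen after their values were seen. They are chr2:201233450-201233479 (plus strand) for CASP8, chrX:37779963-37779992 (plus) for CYBB, chr1:89065316-89065345 (minus) for GBP1 and chr1:89022845-89022874 (minus) for GBP3. The others are chr1:89198927-89198956 (minus) for GBP4, chr12:112938321-112938350 (plus) for OAS3, chr4:186069142-186069171 (plus) for TLR3 and chr20:408291-408320 (plus) for RBCK1.
CASP8: gagtttttggTTTCTGTTTCaccttgtgtc
CYBB: tctgataaaaGAAAAGGAAAccgattgccc
GBP1: aacgaagtacTTTCAGTTTCatattactct
GBP3: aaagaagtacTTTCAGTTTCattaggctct
GBP4: gtgcatgtccTTTCAATTTCggttctcaca
OAS3: agaaagaaacGAAACTGAAAgcagggaatt
TLR3: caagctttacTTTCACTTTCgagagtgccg
RBCK1: gggccgccacTTTCACTTTCtcttccgccg
OAS3 and CYBB have 2 matches each, of which 1 is shown. The OAS3 match lies just before its NF-kB match, and the matches of GBP1 and GBP3 are the same 10 bases. The matches of TLR3, listed as down, and RBCK1, listed as up, are also the same 10 bases.

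**Figure D5:**
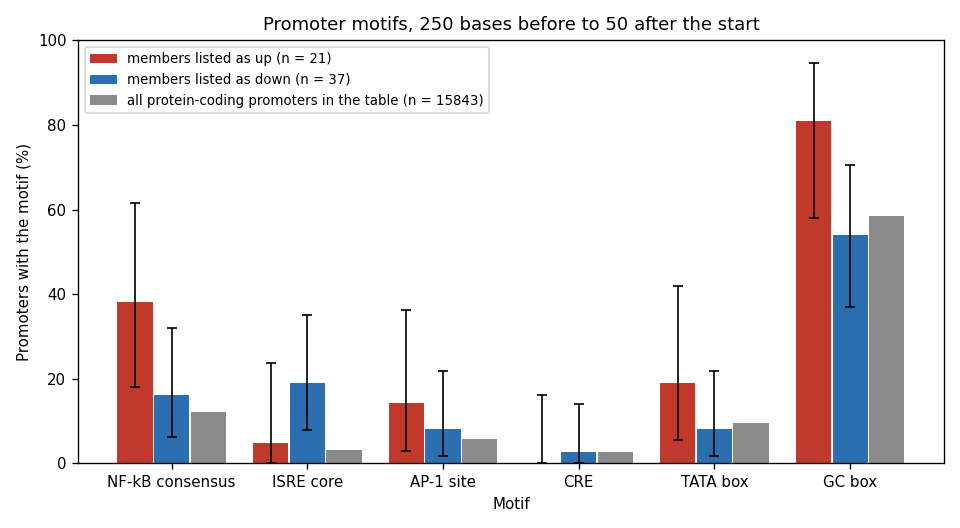
Share of promoters (vertical axis, %) that hold each of 6 motifs (horizontal axis) among members listed as up (red, 21), members listed as down (blue, 37) and all 15843 protein-coding promoters (grey); error bars are exact 95% intervals for counting. The NF-kB consensus is at 38.1% in the red bars and 16.2% in the blue, and the interferon element at 4.76% in the red and 18.9% in the blue.

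The other motifs were less frequent or more general. The AP-1 site TGANTCA was in 3 of 21 promoters of members listed as up (14.3%) and 3 of 37 of those listed as down (8.11%), against 5.75% of protein-coding promoters. The TATA box TATAAA was in 4 of the up members (19.0%) and 3 of the down members (8.11%), against 9.63% of protein-coding promoters. The cyclic AMP element TGACGTCA was in 0 of the up members and 1 of the down members, BIRC2 (2.70%), against 2.59% of protein-coding promoters. The GC box was in 17 of the up members (81.0%) and 20 of the down members (54.1%), against 58.5% of protein-coding promoters. The median GC content of promoters was 66.7% for members listed as up and 55.0% for members listed as down, while over all changed genes it was 65.7% in the up list and 65.0% in the down list. The part of base composition in the motif counts was not tested.

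Outside the 5 rows, the pathways that name most members are those of viral infection. Epstein-Barr virus infection held 22 members, 11 up and 11 down. Hepatitis B and Herpes simplex infection held 18 each, 7 up and 11 down in both, and Influenza A 17, with 6 up and 11 down. Necroptosis held 16, with 5 up and 11 down. Osteoclast differentiation, a pathway that runs through NF-kB and AP-1, held 11, with 7 up and 4 down. All changed genes of these rows, members included, had 32 up and 47 down for Epstein-Barr virus infection and 23 and 48 for Hepatitis B. They had 27 and 37 for Herpes simplex infection and 24 and 35 for Influenza A. Necroptosis had 21 and 30, and Osteoclast differentiation 17 and 20. These rows name the same genes again and are not separate results.

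By position, no member on chromosome 1 (8 genes), 12 (5 genes) or 5 (4 genes) was up, while 5 of 6 on chromosome 19 were. The 12 members on chromosome 11 split into 6 up and 6 down. Of all 2238 changed genes 32.5% were up. Their share on each chromosome was not computed, so nothing is read from these counts. The 5 members up on chromosome 19 were FOSB, ICAM1, NFKBIB, RELB and TICAM1, and CARD8 was down. RELB and FOSB lie 429797 bases apart there. The spans of 18 of the 82 members overlap another protein-coding gene, 6 on the same strand and 12 on the opposite strand. Whether the authors' counting used strand was not known here, so reads of such pairs may have been shared.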

How the data were processed

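Total RNA of SNU-449 cells was sequenced from 1 ezetimibe culture and 1 control culture. HISAT2 2.0.4 and StringTie 1.3.0 are named in the submitters' processing notes. The sources used here give no genome build, annotation, depth, threshold or enrichment test. The authors called changed genes with edgeR, by the deposited table's name. Per the file headers, the authors' table of 327 pathways holds numbers and names of changed genes, an enrichment ratio (the rich factor), and a p-value with its q-value. The authors' ratio, p and q are printed as theirs.

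No level was analysed here, so other pseudocounts and filters on low values could not be tried. Members and lists were chosen with earlier results of these data known: 16 role lists from textbook knowledge, in which 305 symbols were matched and 2 aliases were not, 81 of them members. Some genes are not reported here by name. Shares carry exact Clopper-Pearson 95% intervals. GC content, length, span and positions come from GENCODE release 29 (GRCh38), by gene ID, and were found for all 82 members. Promoters are the first start of each gene in a RefSeq table (GRCh38.p14), in which 21 of the 58 matched members have several. The motif search was tested on simulated sequences. Tools were pandas 2.3.3, SciPy 1.17.1, Matplotlib 3.10.9 and NumPy 2.4.6 under Python 3.11.15.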

Additional observations from a re-analysis of the deposited data

How the results depend on the processing

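The share of members listed as up was 37.8%, and it stayed inside its own interval in 7 of 9 alternatives. It was 60.0% in the IL-17 signaling row alone and 52.0% among members under 2 or more rows, which both keep fewer genes. The gap between the members' share up and the share at the other genes' rate in each GC class was 3.71 percentage points. It ranged from 0.749 with classes of gene span to 4.27 with 3 GC classes. The share of promoters with the NF-kB consensus was 24.1%. With matches on the strand of the gene alone it was 13.8% (19.0% for members listed as up and 10.8% for members listed as down), against 9.11% of protein-coding promoters. With any start in the table it was 57.1% for members listed as up and 18.9% for members listed as down, against 15.9%. The alternatives on transcript length, gene span and starts were added after the data were seen. No paired analysis was possible because each condition has 1 library. With no replicate and no depth, the error of any single call is unknown.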
